A study of Mus musculus with 6 samples.

Results

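The core circadian clock genes of mouse liver were followed at every accessible site that the table of individual replicates assigned to 1 of 10 genes, Arntl, Clock, Npas2, Per1, Per2, Per3, Cry1, Cry2, Nr1d1 and Nr1d2. A site (peak) belongs to the gene with the nearest start, so the rule uses position and no measured level. It gave 48 of the 74076 peaks, on 8 chromosomes, with each gene holding at least 1. Accessibility was read with ATAC-seq, whose transposase inserts sequencing adapters where chromatin is open. Fasted and refed liver gave 3 libraries each, from male C57BL/6J mice, an inbred strain, at 8 weeks of age. Fasted mice went without food for 12 h from 10 pm. Refed mice were fasted for 12 h from 10 am, then ate a high-sucrose diet (69% sucrose, 10% fat) from 10 pm for another 12 h. The killing hour was 10 am for all mice. All 6 libraries therefore share the clock hour of collection, while the hours of the last meals, the hours of the fast and the diet differ together and cannot be told apart. The light schedule is not given in the sources used here. Nor do the labels tie each library to a separate animal, and the p-values therefore describe library-to-library spread, which may be technical.

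The clock of liver cells is a loop of transcription factors. BMAL1, the product of Arntl, pairs with CLOCK or its relative NPAS2, binds E-boxes and switches on the Per, Cry and Nr1d genes; PER and CRY proteins then repress that pair. REV-ERB alpha and beta, encoded by Nr1d1 and Nr1d2, repress Arntl, Npas2 and other genes through a second kind of element, the RORE, where ROR receptors activate. In liver the hours of feeding are known to set the timing of this loop.

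The 48 peaks held between 4358 and 6354 reads per library, with a median of 48 to 77.5 reads per peak, against 3205634 to 4850613 reads in all peaks. Their widths ran from 200 to 2084 bp, and 45 of them had a mean of at least 10 reads per library. The tissue was checked against marker genes of liver cells. All 10 hepatocyte markers had a peak, and the strongest peak of each lay between 20.2 and 46.1 RPKM (reads per kilobase of peak and per 1000000 reads in peaks). Of the other cell types, the Kupffer cell markers Clec4f, Cd5l and Vsig4, the lymphocyte markers Cd3e, Cd79a and Cd79b, the bile duct markers Krt19 and Krt7 and the stellate cell marker Des had no peak.

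Of the 10 genes, RefSeq promoter windows of the GRCm38.p6 build (250 bases before to 50 after a gene start) were at hand for 9, in 13 windows; Per2 is named only. They were searched on both strands for the E-box CACGTG, the related CACGTT, the RORE letters TAGGTCA and TGGGTCA, the D-box letters TTATGTAA and TTACGTAA, and the cyclic AMP element TGACGTCA. The Npas2 sequence is shown because its promoter peak is the clock peak that passed the test, and held none of the 7 motifs in this window. Per3 is shown for 2 copies of TTATGTAA, a motif held by 0.938% of all 32851 windows. Cry1 is shown for CACGTG, held by 7.15% of windows, beside CACGTT, held by 4.68% and lying here on the opposite strand. For Arntl, 30 bases are shown around TAGGTCA, held by 2.61% of windows, at bases 31 to 37 after the second of its 2 listed starts. Capitals mark the matches; each sequence reads 5′ to 3′ along the gene, on the strand named. The 3 longer runs end at the base before the gene start.
Npas2, chr1:39194022-39194271, plus strand: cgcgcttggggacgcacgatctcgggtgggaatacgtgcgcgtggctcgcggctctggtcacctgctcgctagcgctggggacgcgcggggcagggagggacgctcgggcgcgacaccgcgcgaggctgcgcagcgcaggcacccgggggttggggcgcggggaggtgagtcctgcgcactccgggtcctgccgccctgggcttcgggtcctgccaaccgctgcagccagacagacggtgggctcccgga
Per3, chr4:151044666-151044915, minus strand: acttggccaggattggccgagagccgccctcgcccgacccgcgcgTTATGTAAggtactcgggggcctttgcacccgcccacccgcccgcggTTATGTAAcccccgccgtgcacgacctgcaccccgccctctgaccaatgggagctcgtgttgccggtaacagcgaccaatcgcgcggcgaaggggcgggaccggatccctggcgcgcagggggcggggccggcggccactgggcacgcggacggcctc
Cry1, chr10:85185055-85185304, minus strand: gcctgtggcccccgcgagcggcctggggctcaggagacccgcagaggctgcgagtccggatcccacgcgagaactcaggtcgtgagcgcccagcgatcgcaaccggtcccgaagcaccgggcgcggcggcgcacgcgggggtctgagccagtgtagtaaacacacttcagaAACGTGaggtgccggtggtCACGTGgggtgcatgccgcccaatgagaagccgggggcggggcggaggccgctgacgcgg
Arntl, chr7:113207530-113207559, plus strand: aaggcagaaagTAGGTCAgggacggaggtg
Among the other windows, CACGTG also lay at bases -166 to -161, counted from the gene start, of the first Per1 window, and CACGTT on the opposite strand at bases -166 to -161 of Cry2 and -28 to -23 of Nr1d1. The 3 Clock windows, the first Arntl window, the second Per1 window and the Nr1d2 window held none of the 7. A match is a description of the letters, and a missing match says only that they are not in that window.

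Refed liver was more open at the promoter of Npas2, the partner of BMAL1 that can stand in for CLOCK, while no other clock peak passed the main test. The Npas2 peak spans chromosome 1 from 39249152 to 39251235 (mm9, 2084 bp), with its centre 924 bp before the gene start; by distance it reaches from 1966 bp before to 118 bp after it. Fasted replicates 1, 3 and 4 had 14.2, 21.0 and 20.4 RPKM, from 144, 140 and 174 reads. Refed replicates 5, 7 and 8 had 33.8, 41.5 and 36.6 RPKM, from 294, 280 and 357 reads. Every refed library was thus above every fasted one, and the gap between the groups was wider than the spread within either. The means were 18.5 ± 3.73 and 37.3 ± 3.90 RPKM (SD, n = 3 each). On the log2 scale refed was higher by 1.02 ± 0.19 (SE), with a limma adjusted p of 0.0213. edgeR gave an adjusted p of 0.000101 and DESeq2 of 4.15e-07 on the whole reads, and the authors' deposited table lists the peak with a log2 fold change of 1.01 (FDR 1.39e-08). The limma call was lost without refed replicate 7 (adjusted p = 0.0852) or refed replicate 8 (0.0916), after quantile normalization (0.111) and without an intensity trend (0.112), with a log2 change of 0.94 to 1.03 in these fits. The fit without an intensity trend called 0 of the 74076 peaks, so a call lost there is not particular to Npas2. In tissue, a change in the number of cells of a type and a change in accessibility per cell cannot be told apart. Reads summed over the hepatocyte marker peaks were 1060 to 1144 RPM (reads per 1000000 reads in peaks) in fasted and 946 to 1023 in refed libraries, with 12 of those 83 peaks called by limma, against 0.802% of all peaks called higher and 0.427% lower. The endothelial marker sums were 267 to 290 RPM in fasted and 290 to 306 RPM in refed libraries, with 2 of 42 peaks called. The median log2 change of the hepatocyte marker peaks was 0.03. The bile duct marker sums were 62.7 to 78.3 in fasted and 77.1 to 90.5 in refed, and those of lymphocyte markers 45.5 to 51.3 and 38.3 to 47.2. Kupffer cell and macrophage marker sums were 20.1 to 28.0 in fasted and 22.2 to 24.4 in refed. Those of stellate cell markers were 112 to 135 and 101 to 135. The part of any of these cell types in the clock results was not tested.

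Against all peaks, this is 1 of 48 higher calls and 0 of 48 lower ones, where limma called 0.802% of the 74076 peaks higher and 0.427% lower. edgeR called 2 of the 46 clock peaks it tested, those of Npas2 and of the Nr1d1 3′ end, against 4.01% of all peaks tested. DESeq2 called the same 2 of 44, against 1.66%. The authors' deposited table lists 4 of the 48, which adds peaks in intron 2 of Arntl and intron 3 of Cry2, against 4.47% of all peaks. At an unadjusted p under 0.05 there were 14 of 48 in limma, against 14.5% of all peaks. The 3 refed libraries all lay above the 3 fasted ones at 13 of the 48, against 10.5% of all peaks, and below them at 6, against 8.57%.

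**Figure D1:**
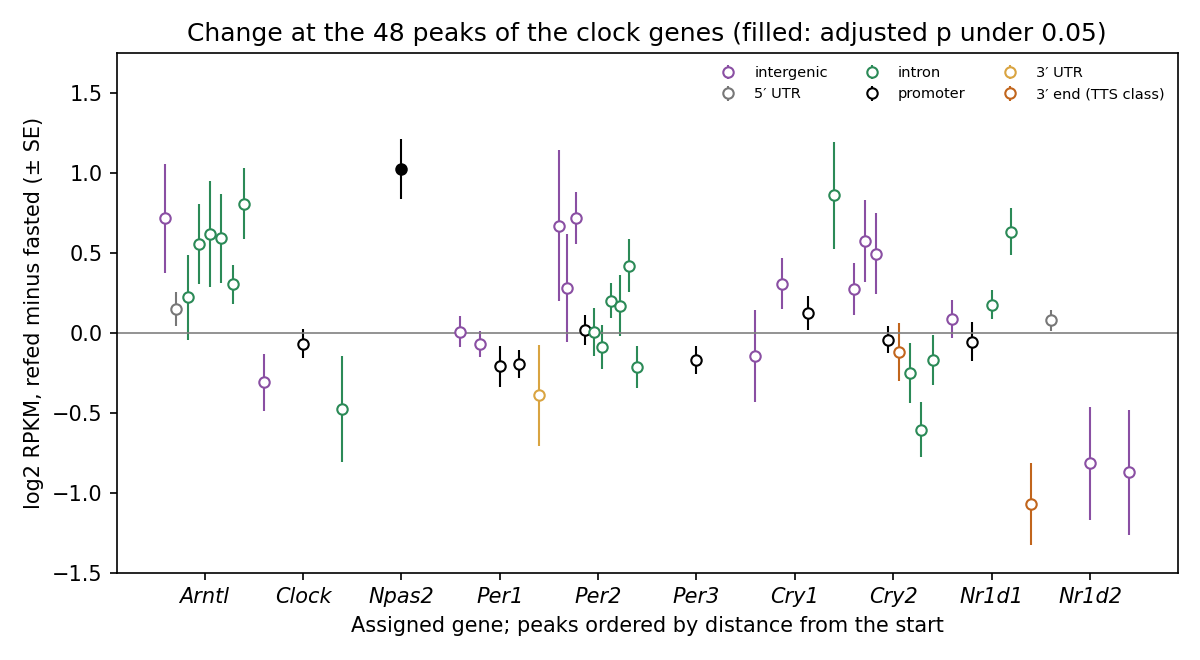
Change in accessibility at the 48 clock gene peaks, as log2 RPKM in refed minus fasted liver (limma, ± SE, 3 libraries per group), by assigned gene and ordered by distance from the gene start; colours give the annotation class, and a filled point passed an adjusted p of 0.05. The filled point is the Npas2 promoter at 1.02, all 8 Arntl points lie above 0, and the lowest point, at -1.07, is the 3′ end of Nr1d1.

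Peaks inside Npas2 but nearest to the start of its neighbour Rpl31, a ribosomal protein gene, were assigned by the file to Rpl31 and are therefore no members. Transcript names placed 6 such peaks in Npas2 introns, 94.4 to 147 kb from the Npas2 start. All 6 had a log2 change above 0, from 0.43 to 1.90 with a median of 0.94, where 54.4% of all peaks had one above 0. The peak in intron 3 of 20 (chromosome 1, 39345306 to 39345656) had 9.98, 2.67 and 6.97 RPKM in fasted and 19.1, 23.8 and 21.3 RPKM in refed libraries. Each refed value was above each fasted one, although the fasted values rest on 17, 3 and 10 reads. Its change was 1.90 ± 0.44 (limma adjusted p = 0.0548; edgeR 0.00754; limma 0.0202 without fasted replicate 1, 0.0454 without fasted replicate 3 and 0.101 to 0.177 without 1 of the other 4 libraries). Summed over the 6 peaks, 2 of which lie in intron 7, the fasted libraries held 83, 49 and 64 reads and the refed ones 123, 100 and 147, or 15.3 to 17.1 against 29.4 to 31.4 RPM. None of the 6 passed in limma, 4 had an unadjusted p under 0.05, against 14.5% of all peaks, and edgeR called 1 of the 5 it tested, against 4.01%. In 4 of the 6 the groups overlapped, and in 2 all refed libraries lay above all fasted ones, against 10.5% of all peaks. The 6 intron peaks were picked out after their values had been seen.

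**Figure D2:**
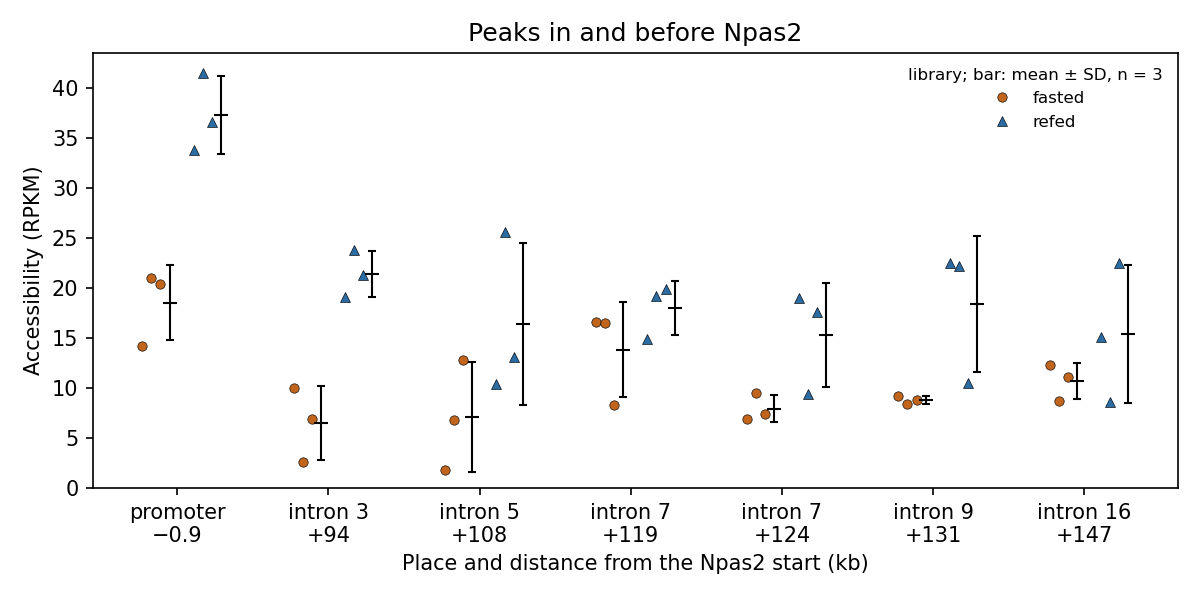
Accessibility in RPKM at the Npas2 promoter peak and at 6 peaks in Npas2 introns, by distance from the Npas2 start in kb, with 1 point per library and the mean ± SD beside each group. Refed libraries sit above all fasted ones at the promoter, in intron 3 and in intron 9, and the groups overlap in introns 5, 7 and 16.

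Arntl, which encodes BMAL1, had 8 peaks, and each had a higher mean in refed than in fasted liver, by 0.15 to 0.81 on the log2 scale, but none passed the test; 54.4% of all peaks had a change above 0. The peak farthest into intron 2 of 16, 54411 bp from the start (chromosome 7, 120405159 to 120405622), had 15.6, 12.1 and 15.3 RPKM in fasted and 20.6, 26.6 and 28.1 RPKM in refed libraries. The groups did not overlap there, with a log2 change of 0.81 ± 0.22 (limma adjusted p = 0.0963; edgeR 0.0537), and the authors' deposited table lists it at 0.78 (FDR 0.0256). Its neighbour 53269 bp from the start was stronger, at 41.0, 36.9 and 34.2 RPKM in fasted and 46.9, 49.9 and 41.5 RPKM in refed libraries, and its change was smaller, at 0.30 ± 0.12 (adjusted p = 0.259). Of the 8 peaks, 4 had all refed libraries above all fasted ones, against 10.5% of all peaks, and all 4 lie in intron 2. At the start of the gene, in a 1399 bp peak annotated as exon 1 of 17, fasted libraries had 69.3, 91.2 and 72.7 RPKM and refed ones 79.8, 95.8 and 81.9 RPKM; these overlapped (log2 change 0.15 ± 0.10, adjusted p = 0.572). Reads summed over the 8 peaks were 160 ± 14.2 RPM in fasted and 190 ± 17.9 in refed liver, a log2 change of 0.25 ± 0.09 that did not pass (limma adjusted p = 0.245).

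Clock, whose product pairs with BMAL1, had 3 peaks with changes from -0.47 to -0.07. Its promoter peak had 60.5, 63.5 and 68.5 RPKM in fasted and 65.7, 59.8 and 58.0 RPKM in refed libraries, with the groups mixed (log2 change -0.07 ± 0.09, adjusted p = 0.818). The peak with its smallest p, 1002 bp before the start, had 32.5, 39.3 and 50.7 RPKM in fasted and 33.4, 26.4 and 38.5 RPKM in refed libraries, again mixed (-0.31 ± 0.18, adjusted p = 0.46).

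Nr1d1, the REV-ERB alpha gene, had 5 peaks. Of these, 1 was lower and 1 higher in every refed library than in every fasted one, against 8.57% and 10.5% of all peaks. At the 3′ end of Nr1d1, 8173 bp from the start (chromosome 11, 98628080 to 98628956), fasted libraries had 18.8, 28.1 and 21.5 RPKM, from 80, 79 and 77 reads. Refed libraries had 12.3, 9.51 and 10.5 RPKM there, from 45, 27 and 43 reads. All refed values lay below all fasted ones, with means of 22.8 ± 4.79 and 10.8 ± 1.41 RPKM and a log2 change of -1.07 ± 0.26. That missed the threshold in limma (adjusted p = 0.0636; 0.0567 to 0.182 with 1 library left out) and passed it in edgeR (0.00434), in DESeq2 (0.00565) and, in limma, with median centring (0.0394); the authors' deposited table gives -1.06 (FDR 0.000127). The 3′ ends of Nr1d1 and of Thra, a thyroid hormone receptor gene, are known to overlap on opposite strands, and ATAC-seq does not record a strand, so the peak cannot be given to one of them.

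A peak in intron 1 of 7 of Nr1d1, 2325 bp from the start (chromosome 11, 98634214 to 98634519), went the other way. It had 28.3, 32.6 and 23.2 RPKM in fasted and 42.3, 46.4 and 40.5 RPKM in refed libraries, which did not overlap. The log2 change was 0.63 ± 0.15 (limma adjusted p = 0.0572; edgeR 0.113; DESeq2 0.443). limma gave 0.0455 among peaks with a mean of at least 10 reads, 0.0314 without fasted replicate 3 and 0.0618 to 0.189 without 1 of the other 5 libraries. The promoter peak had 44.9, 47.2 and 38.3 RPKM in fasted and 38.2, 41.6 and 45.4 RPKM in refed libraries, and its change was -0.06 ± 0.12 (adjusted p = 0.927). The strongest Nr1d1 peak, in intron 1 and 1369 bp from the start, had 57.2, 54.8 and 64.0 RPKM in fasted and 66.7, 63.9 and 67.9 RPKM in refed libraries, which overlapped narrowly (0.18 ± 0.09, adjusted p = 0.39). Reads summed over the 5 Nr1d1 peaks were 133 ± 4.86 and 133 ± 5.09 RPM, a log2 change of 0.004 ± 0.07. The difference between a peak's change and that of its own gene's promoter was tested for all peaks outside the promoter class whose gene had a promoter peak. For the Nr1d1 3′ end it was -1.01 ± 0.25 (limma unadjusted p = 0.00454, adjusted p = 0.156) and for the intron 1 peak 0.69 ± 0.18 (unadjusted p = 0.00614, adjusted p = 0.171). In this test 0 of 28 clock peaks passed, as did 0.0% of 25997 peaks, and 4 of 28 had an unadjusted p under 0.05, against 14.7% of all. On simulated reads, whose spread was set and not taken from these libraries, this fit had little power. Its power on the real reads was not measured, so that its count of 0 sets no limit on such differences. Among peaks with a mean of at least 10 reads, 0 of 27 passed, against 0.933%, with an adjusted p of 0.0863 for the Nr1d1 3′ end.

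**Figure D3:**
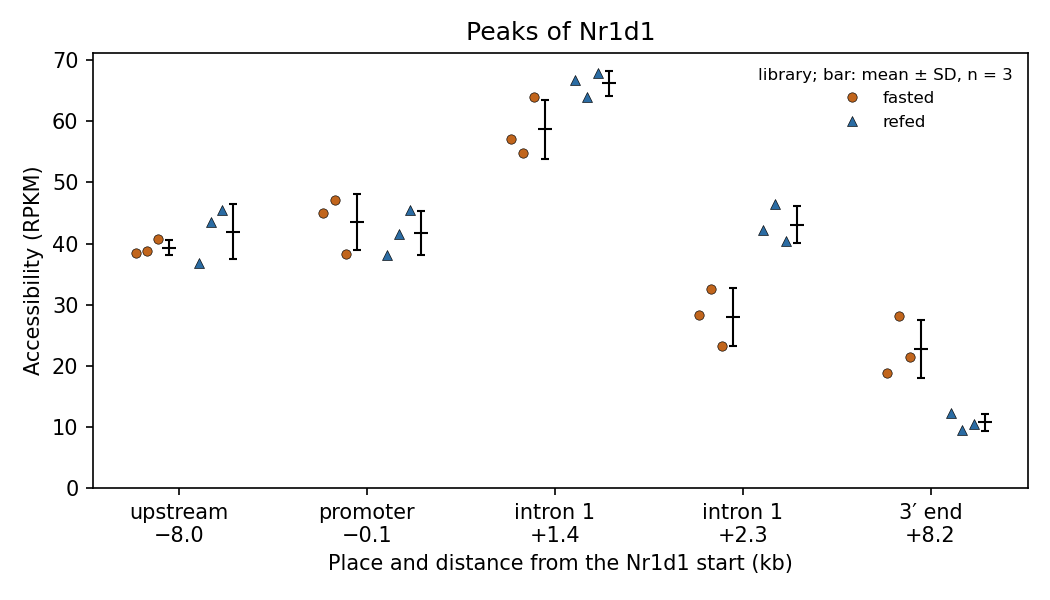
Accessibility in RPKM at the 5 peaks of Nr1d1, by distance from its start in kb, with 1 point per library and the mean ± SD beside each group. The groups overlap upstream, at the promoter and at the first intron 1 peak; refed libraries lie above fasted ones 2.3 kb into the gene (43.1 against 28.0 RPKM) and below them at the 3′ end (10.8 against 22.8 RPKM).

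Nr1d2, the REV-ERB beta gene, had the strongest start-site peak of the 10 genes and 2 weak peaks 37430 and 37812 bp downstream of its start. The start-site peak, annotated as exon 1 of 8, had 93.6, 104 and 101 RPKM in fasted and 104, 111 and 101 RPKM in refed libraries, with a log2 change of 0.08 ± 0.07 (adjusted p = 0.661). At the nearer downstream peak fasted libraries had 14.8, 12.6 and 13.2 RPKM and refed ones 5.37, 9.69 and 8.62 RPKM. At the farther one these were 8.55, 14.4 and 13.5 RPKM and 7.72, 7.11 and 4.92 RPKM. Refed values were below all fasted ones at both, on 5 to 16 reads per library, against 8.57% of all peaks. Neither change passed (-0.82 ± 0.35 and -0.87 ± 0.39, limma adjusted p = 0.305 and 0.322).

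The Per genes encode repressors of the BMAL1 pairs. Per2 had 10 peaks, the most of any member, and the clearest difference lay 4225 bp before its start (chromosome 1, 93360011 to 93360250). Fasted libraries had 25.8, 19.5 and 19.4 RPKM there, from 30, 15 and 19 reads, and refed libraries 32.9, 36.0 and 36.5 RPKM, from 33, 28 and 41 reads. The groups did not overlap, and the log2 change was 0.72 ± 0.16. It just missed the limma threshold (adjusted p = 0.0538), passed it without fasted replicate 1 (0.0225), with median centring (0.0398) and among peaks with a mean of at least 10 reads (0.0432), and did not pass without 1 of the other 5 libraries (0.0887 to 0.207), in edgeR (0.141) or in DESeq2 (0.556). The Per2 promoter had 64.6, 80.0 and 72.9 RPKM in fasted and 71.6, 80.2 and 68.2 RPKM in refed libraries, and these overlapped (log2 change 0.02 ± 0.09, adjusted p = 0.999). Of the other 8 Per2 peaks, those 16867 bp before and 13063 bp after the start also had all refed libraries above the fasted ones, the first on 2 to 4 reads. That makes 3 of the 10 Per2 peaks, against 10.5% of all peaks.

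Per1 had 5 peaks, 4 of them between 36.7 and 87.5 RPKM in every library, and its changes ran from -0.39 to 0.01. The promoter peak at the first start had 60.9, 59.3 and 63.5 RPKM in fasted and 50.8, 55.6 and 54.4 RPKM in refed libraries. Refed values were below all fasted ones, by a log2 change of -0.19 ± 0.09 that did not pass (adjusted p = 0.334). The strongest Per1 peak, 3890 bp before the start, had means of 78.6 ± 10.5 and 78.6 ± 5.15 RPKM. Per3 had 1 peak, at its promoter, with 63.7, 76.0 and 67.8 RPKM in fasted and 60.4, 61.8 and 61.7 RPKM in refed libraries. These did not overlap either, and the change of -0.17 ± 0.09 did not pass (adjusted p = 0.402).

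The Cry genes encode the partners of PER in repression. Cry1 had 4 peaks with changes from -0.14 to 0.86, the largest in intron 1 of 12, 23078 bp from the start, with 7.91, 10.4 and 6.88 RPKM in fasted and 15.3, 11.8 and 18.6 RPKM in refed libraries. The groups did not overlap there, on 11 to 34 reads per library (log2 change 0.86 ± 0.33, adjusted p = 0.246). The Cry1 promoter changed by 0.12 ± 0.10, from 57.1 ± 5.94 to 62.2 ± 5.76 RPKM (adjusted p = 0.659). Cry2 had 8 peaks, and the largest difference among them was lower in refed liver. In intron 3 of 11, 10153 bp from the start (chromosome 2, 92263799 to 92264348), fasted libraries had 33.4, 26.7 and 30.2 RPKM and refed ones 20.0, 18.5 and 20.6 RPKM. All refed values lay below all fasted ones, with a log2 change of -0.61 ± 0.17 (limma adjusted p = 0.102; edgeR 0.0675), and the authors' deposited table lists -0.62 (FDR 0.0342). The 3 Cry2 peaks 9495 to 12738 bp before the start had log2 changes of 0.27 to 0.57 that did not pass, and refed means of 20.4 to 26.6 RPKM. The Cry2 promoter stood at 78.8 ± 3.43 and 76.7 ± 6.72 RPKM (log2 change -0.04 ± 0.08, adjusted p = 0.909). At 2 of the 8 Cry2 sites, 1469 and 12174 bp from the start, the annotation names D930015M05Rik, a non-coding transcript that overlaps Cry2. The peaks in intron 1 and intron 3 of Cry2 lie between these sites, so neither can be given to Cry2 alone.

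Setting the peak nearest each gene start side by side, 9 of the 10 had changes from -0.19 to 0.15 on the log2 scale, with a median of -0.04, and Npas2 stood apart at 1.02. Promoter-class peaks over the whole table had a median change of -0.02. In fasted liver the levels per length rose from 18.5 RPKM at Npas2 over 43.5 ± 4.60 at Nr1d1 and 57.1 ± 5.94 at Cry1 to 99.6 ± 5.43 RPKM at Nr1d2. The ranges of Npas2 and Nr1d1, of Nr1d1 and Cry1, and of Cry2 and Nr1d2 did not touch, whereas each neighbouring pair in the order Cry1, Per1, Clock, Per3, Per2, Arntl and Cry2 overlapped. In refed liver Npas2 was again lowest per length, but its range of 33.8 to 41.5 RPKM overlapped that of Nr1d1, at 38.2 to 45.4 RPKM. This order depends on peak width, which was 2084 bp at Npas2 and 734 bp at Nr1d1. In reads, Npas2 had 144, 140 and 174 in fasted libraries against 160, 111 and 115 at Nr1d1. In refed libraries Npas2 had 294, 280 and 357 reads against 117, 99 and 156, so it was not lowest by reads. With the reads of all peaks of a gene summed, Npas2, through its 1 peak, was the only one of the 10 genes to pass (limma adjusted p = 0.00709; edgeR 0.0033), against 1.39% of 19059 genes called higher; it lost this call without refed replicate 8, after quantile normalization and without an intensity trend.

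**Figure D4:**
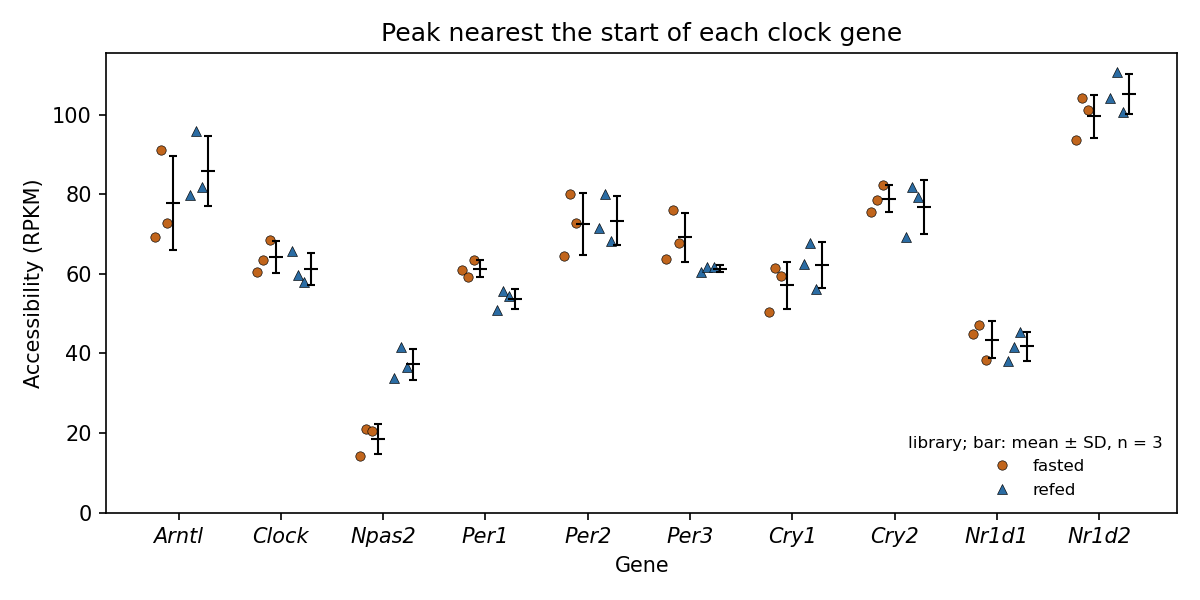
Accessibility in RPKM at the peak nearest the start of each of the 10 genes, with 1 point per library and the mean ± SD beside each group (3 libraries each). Refed and fasted points are far apart at Npas2, at 37.3 and 18.5 RPKM, and within 0.19 log2 units of each other in the mean at the other 9 genes.

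Peaks with a profile most like that of the Npas2 promoter over the 6 libraries were sought among 60442 peaks of other genes with a mean of at least 10 reads, by the root-mean-square difference of centred log2 RPKM. The 3 closest were an intergenic peak assigned to Gm12409 (0.0514), an intergenic peak assigned to Zbtb37 (0.0699) and a peak in intron 1 of 8 of Cyb5r3 (0.0758), against a median of 0.605 over the peaks searched. All 3 were higher in refed libraries without overlap, by 1.02, 0.98 and 1.13 on the log2 scale. Their direction and size follow from the choice by likeness to Npas2, and are no separate result.

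Genes that act on or beside the loop were read from a list of 30, all with a peak, and 170 peaks in all. They comprised ROR receptors, output and repressor factors, kinases and ubiquitin enzymes of clock proteins, nutrient sensors and corepressors. Of these peaks 3 were lower and 0 higher in refed liver by limma, at Usp2 and Nampt, and 28 genes had no call; over all peaks limma called 0.427% lower and 0.802% higher. edgeR called 5 lower and 2 higher, against 4.01% of all peaks in either direction, and DESeq2 3 lower and 0 higher, against 1.66%. The median change was -0.08 against 0.002 over all peaks, and 33 of the 170 had an unadjusted p under 0.05, against 14.5% of all peaks. In intron 2 of 12 of Usp2, a ubiquitin protease gene (chromosome 9, 43886995 to 43887601), fasted libraries had 35.0, 43.2 and 32.6 RPKM and refed ones 15.4, 17.3 and 14.4 RPKM, with no overlap. It fell by 1.23 ± 0.18 (limma adjusted p = 0.00841) and passed with any 1 library left out (0.0129 to 0.0398). A second Usp2 peak, in intron 1 of 11 of another isoform, fell by 1.02 ± 0.18, from 34.7 ± 1.84 to 17.3 ± 2.89 RPKM (adjusted p = 0.0184; 0.0863 without fasted replicate 4).

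The third call lay 49369 bp before Nampt, the gene of the rate-limiting enzyme of NAD salvage (chromosome 12, 33455668 to 33455994). Fasted libraries had 39.1, 27.7 and 32.9 RPKM there and refed ones 12.4, 6.61 and 9.80 RPKM, from 62, 29 and 44 and from 17, 7 and 15 reads. All refed values were below all fasted ones, and the peak fell by 1.82 ± 0.27 (limma adjusted p = 0.00856; 0.0030 to 0.0466 with 1 library left out). Rorb, a gene of the ROR receptor family, had 17.8, 21.3 and 20.2 RPKM at its promoter in fasted and 35.7, 32.2 and 29.9 RPKM in refed libraries; the groups were apart, and the change of 0.72 ± 0.16 missed the limma threshold (adjusted p = 0.053) and passed in edgeR (0.0288). The promoter of Dbp, an output factor that binds D-boxes, was picked after its values were seen and had 73.7, 98.4 and 75.7 RPKM in fasted and 64.7, 63.7 and 60.6 RPKM in refed libraries, also apart, at -0.38 ± 0.10 (adjusted p = 0.097; edgeR 0.081). Peaks in intron 2 of 3 of Hlf and in the last exon of Ciart, a repressor of BMAL1, had changes of -0.94 and -0.92, and a peak assigned to Tef, in an intron of another gene, had one of 1.02. These 3 were called by edgeR (adjusted p = 0.0211, 0.0491 and 0.0212) and not by limma (0.0939, 0.127 and 0.114). The list and its named members were set with earlier results of these data known, and give no independent support for a direction.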

How the data were processed

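Nuclei came from 50 to 100 mg of fresh liver, about 50000 per transposase reaction, per the labels' protocols. The submitters' processing notes name mm9 and the tools FastQC, cutadapt, Bowtie2, SAMtools, MACS2, HOMER and DESeq2; their versions, and any offset of reads for the cutting enzyme, were not given in the sources used here. Peaks form 1 merged set annotated with HOMER, counted from unique reads without duplicates, per the file headers.

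The authors deposited RPKM per peak and library; from the values, an empty peak stands at 0.9 reads. Since RPKM divides by reads in peaks, a difference in their total is removed. Whole read counts were recovered at a tolerance of 0.01 reads (100% of values, empty peaks included) and matched those of the authors' deposited edgeR table at each of its 3314 peaks. The p-value, FDR and log2 fold change printed as the authors' come from that deposited table. The authors' pooled table was not used.

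log2 RPKM of all 74076 peaks was fitted with limma 3.58.1 (R 4.3.3; intensity trend, no filter, no pseudocount, no covariate), refed minus fasted, with Benjamini-Hochberg adjustment over all peaks and calls at 0.05; at low peaks the value set for empty peaks shrinks a fold change. Summed reads per gene, and peak minus promoter (the highest promoter-class peak of the same gene), were fitted likewise. edgeR 4.0.16 (quasi-likelihood, TMM, filterByExpr, 61067 peaks kept) and DESeq2 1.42.0 were alternatives, as were other scalings, filters and left-out libraries. The fits were tested on simulated data. Peaks were named by the rule set for each gene (promoter, strongest and smallest-p peaks) and by calls. Members, lists and rules were chosen with earlier results of these data known. RefSeq names and sequences (GRCm38.p6) were matched by symbol or transcript; peak coordinates are mm9.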

Additional observations from a re-analysis of the deposited data

How the results depend on the processing

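No paired analysis was possible because the groups share no replicate number. The 1 clock peak called by limma became 0 without an intensity trend and 0 after quantile normalization (12 and 17 at an unadjusted p under 0.05), 3 with median centring (2 higher and 1 lower) and 3 among peaks with a mean of at least 10 reads; edgeR with and without a filter and DESeq2 each gave 2 (1 higher and 1 lower), and leaving out 1 library gave 0 to 2 (0 without refed replicate 7 or 8, with 12 and 10 unadjusted; 2 without fasted replicate 1 or 3). A pseudocount of 1 RPKM, a limit of 100 kb to the gene start and, chosen after seeing the data, counting peaks inside clock gene transcripts left it at 1. The 1 gene called on summed reads became 0 without a trend and 0 after quantile normalization, and 0 to 1 with a library left out. The 3 calls of associated genes became 0, 0, 7 and 7 without a trend, after quantile normalization and by edgeR with and without a filter. Over all peaks, limma gave 594 higher and 316 lower calls, 71 and 23 after quantile normalization and 0 without a trend, so the peak calls lost without a trend are not particular to the clock genes. Of 278 refits of the 20 named clock peaks, 254 kept the direction and the side of the threshold, 9 gained and 4 lost the call, and 11 changed sign, all at peaks that did not pass. For the peak 3890 bp before Per1 they were -0.0288 (median centring), -0.00216 (edgeR without a filter) and -0.0100 (DESeq2), with -0.103 to 0.0889 over the left-out libraries. For the Per2 promoter the change was -0.0171 with median centring and -0.0623 to 0.0928 with a library left out, and over the same left-out fits it was -0.0909 to 0.0312 for the Cry2 promoter and -0.145 to 0.00602 for the Nr1d1 promoter. The causes were not tested. Depth limits what can be said of intronic and distal peaks with few reads per library.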

Other observations

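The ends of 2 other clock genes are covered by peaks that the file assigns to neighbours, and they were read after the values had been seen. At the 3′ end of Per1, in a peak assigned to Hes7 (chromosome 11, 68923989 to 68924439), fasted libraries had 6.40, 6.23 and 8.68 RPKM and refed ones 13.3, 17.1 and 13.7 RPKM. The groups did not overlap, on 9 to 29 reads per library, with a log2 change of 1.06 ± 0.34 (limma adjusted p = 0.155; edgeR 0.0531). At the 3′ end of Cry2, in a peak assigned to Mapk8ip1 (chromosome 2, 92242922 to 92243125), fasted libraries had 16.2, 24.5 and 10.8 RPKM and refed ones 3.52, 6.05 and 10.5 RPKM, on 3 to 16 reads. The highest refed value lay just below the lowest fasted one, and the change of -1.42 ± 0.45 did not pass (adjusted p = 0.151). In the last intron of Clock, a peak assigned to Tmem165 held 0 to 7 reads per library. In Per2, 3 peaks assigned to Hes6, in introns 17, 19 and 20 of 22, had changes of -0.47, 1.30 and -0.02 with overlapping groups and adjusted p of 0.508, 0.441 and 0.999.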
